A study of Mus musculus with 12 samples.

Results

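The transcriptional co-activators YAP and TAZ, their TEAD partners and 4 of their best-known target genes were followed through muscle stem cells (MuSCs) before culture, in culture, and in culture under compression. The set held 10 genes, taken by name and all found among the 55335 genes of the count files: Yap1, Wwtr1 (which encodes TAZ), Tead1, Tead2, Tead3, Tead4, Ccn1, Ccn2, Ankrd1 and Amotl2. All 10 passed the filter on low counts. MuSCs were sorted by fluorescence from the hindlimb muscles of adult mice of the Pax7-ZsGreen strain, in which a transgene makes Pax7-expressing cells fluoresce; every group carried it, and the gate was set on that fluorescence. F cells were freshly isolated and put into lysis reagent as they were sorted. Uncompressed cells spent 2 days (2d-U) or 5 days (5d-U) in growth medium on Matrigel and fibronectin, and the 2+3d-C cells spent 2 days there and then 3 more under a pillared silicone device that limits cell height. Lysis of cultured cells came right after the medium, and under compression also the device, was taken off. Each group had 3 libraries, and neither the labels nor the methods tie a library to particular mice, so p-values measure the spread between these libraries.

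YAP and TAZ carry mechanical and cell density cues to the nucleus. The Hippo kinases LATS1 and LATS2 phosphorylate them, which holds them in the cytoplasm, and when they are not phosphorylated they enter the nucleus and bind DNA through the TEAD factors, TEAD1 to TEAD4. In MuSCs and myoblasts YAP is known for promoting proliferation, and RNA levels alone do not report where the YAP and TAZ proteins are in the cell.

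TEAD factors recognise the letters GGAATG, or CATTCC on the other strand. RefSeq promoter windows on GRCm38.p6 (the assembly called mm10 in the files), each running from 250 bases before a gene's start to 50 bases after it, were held for 7 of the 10 genes, in 10 windows. The motif was present on one or the other strand in at least 1 window of 6 of these 7 genes and in 8 of the 10 windows, some of which overlap, against 4817 (14.7%) of all 32851 windows. Tead2 had 1 window without these letters. Promoters of a pair of targets that moved in opposite directions in compressed cells (Ccn1 and Ankrd1) and of both co-activators are shown, with every match in capitals.
Ccn1 (chr3:145649936-145650235, minus strand): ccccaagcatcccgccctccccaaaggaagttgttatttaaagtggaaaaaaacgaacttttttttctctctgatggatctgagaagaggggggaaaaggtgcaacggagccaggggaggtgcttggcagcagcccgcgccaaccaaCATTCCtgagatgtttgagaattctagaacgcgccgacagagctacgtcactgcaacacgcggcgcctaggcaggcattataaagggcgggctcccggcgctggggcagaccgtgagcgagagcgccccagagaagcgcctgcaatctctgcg
Ankrd1 (chr19:36119795-36120094, minus strand): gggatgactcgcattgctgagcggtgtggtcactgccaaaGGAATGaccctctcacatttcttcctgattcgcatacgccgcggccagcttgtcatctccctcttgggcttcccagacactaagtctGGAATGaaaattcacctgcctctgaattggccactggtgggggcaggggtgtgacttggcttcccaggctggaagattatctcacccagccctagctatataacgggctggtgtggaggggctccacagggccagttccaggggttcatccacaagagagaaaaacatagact
Yap1 (chr9:8004547-8004846, minus strand): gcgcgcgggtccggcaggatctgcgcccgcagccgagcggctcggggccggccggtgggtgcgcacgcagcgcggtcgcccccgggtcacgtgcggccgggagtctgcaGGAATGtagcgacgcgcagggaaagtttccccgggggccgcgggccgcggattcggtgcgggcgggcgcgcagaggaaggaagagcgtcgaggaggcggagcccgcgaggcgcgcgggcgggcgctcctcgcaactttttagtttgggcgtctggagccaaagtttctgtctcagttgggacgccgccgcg
Wwtr1 (chr3:57575861-57576160, minus strand): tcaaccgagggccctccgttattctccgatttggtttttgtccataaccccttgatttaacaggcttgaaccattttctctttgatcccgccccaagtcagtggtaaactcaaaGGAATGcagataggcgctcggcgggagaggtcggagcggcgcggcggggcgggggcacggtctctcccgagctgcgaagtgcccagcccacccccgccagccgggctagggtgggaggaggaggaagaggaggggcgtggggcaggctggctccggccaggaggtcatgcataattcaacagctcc
The Ccn1 match began 103 bases before the start and lay on the other strand. Ankrd1 held the motif at 210 and at 123 bases before its start, Yap1 at 141 and Wwtr1 at 136. No window of the 7 genes held a CArG box, the site of serum response factor, which 1.63% of all windows had, nor an AP-1 site (TGACTCA or TGAGTCA), which 5.20% had. A match is a description of these letters and not a measured binding site.

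Libraries held 12540745 to 62424851 reads on genes, and the members had 0 to 297437 reads in a library. Reads on 1853 genes of silent families (olfactory, vomeronasal and taste receptors and others) reached 3.84 to 7.24 per kb in 5d-U replicate 1 and F replicates 4 and 5, against 0.00967 to 0.641 in the other 9 libraries, so these 3 libraries stood apart. At that density, 46.0% of the Tead3 reads of 5d-U replicate 1 would be such background, but only 0.320% of its Ccn2 reads and 0.753% of its Wwtr1 reads. Pax7, the transcription factor that marks MuSCs, stood at 1.52 to 15.1 RPKM (reads scaled to the exon length and to the TMM-scaled library size) over all 12 libraries. Myod1, the myogenic determination factor, was at 297 to 4548 RPKM. Mean Pax7 was 2.51 RPKM in F, 5.76 in 2d-U, 4.48 in 5d-U and 13.3 in 2+3d-C. Mean Myod1 was 489, 655, 944 and 3186 RPKM in the same order, so both were lowest in F and highest under compression. By staining, the paper reports a larger fraction of Pax7-positive, MyoD-negative cells under compression than in uncompressed culture. Bulk RNA levels do not report such fractions.

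**Figure D1:**
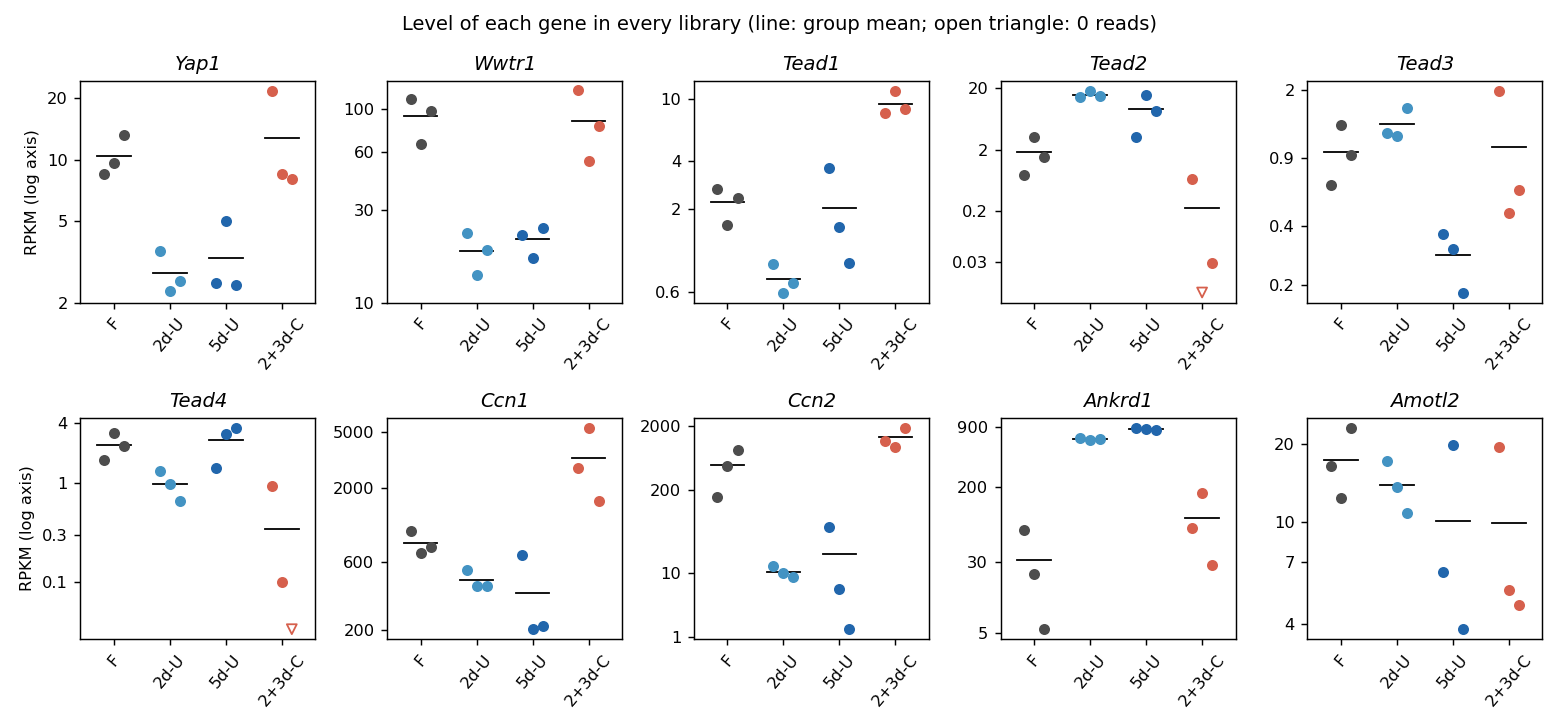
Level of each of the 10 genes in RPKM (log axis, scaled separately for each gene) in the 3 libraries of each of the 4 groups. Points are libraries, lines are group means and open triangles are libraries with 0 reads; in 2+3d-C, Ccn2 was at 939 to 1854 RPKM and Ankrd1 at 27.5 to 171 RPKM, while both uncompressed cultures held Ccn2 at 1.33 to 52.2 and Ankrd1 at 651 to 886.

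The co-activator genes were high in F, low in both uncompressed cultures, and high again in 2+3d-C. Wwtr1 (ENSMUSG00000027803.14, chr3:57455649-57575910, minus strand), the gene of TAZ, was at 112, 65.7 and 97.3 RPKM in F replicates 1, 4 and 5, at 22.8, 13.8 and 18.8 after 2 days (2d-U replicates 1, 2 and 3), at 22.2, 17.0 and 24.3 after 5 days (5d-U replicates 1, 2 and 6), and at 125, 53.5 and 81.8 under compression (2+3d-C replicates 4, 5 and 10). The lowest F or 2+3d-C library was above the highest uncompressed one, and the F and 2+3d-C libraries overlapped, as did those of 2d-U and 5d-U. In the fit of edgeR's quasi-likelihood test, with p-values adjusted by Benjamini-Hochberg over the 22635 genes tested and a gene called under 0.05, Wwtr1 was 4.10-fold higher under compression than in 5d-U (log2 fold change 2.03 ± 0.41 SE, adjusted p = 0.0031) and 4.69-fold higher than in 2d-U (2.23 ± 0.42, adjusted p = 0.00161). Against F, the difference was -0.08 ± 0.40 on the log2 scale (adjusted p = 0.909). Wwtr1 was already lower at day 2 than in F (-2.31 ± 0.42, adjusted p = 0.00125). In such bulk libraries fewer cells of a type and less RNA per cell cannot be told apart.

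Yap1 (ENSMUSG00000053110.13, chr9:7931999-8004596, minus strand) also stood high in F and 2+3d-C and low in both uncompressed cultures, at a lower level. Its libraries, in the same order of replicates as above, were at 8.52, 9.66 and 13.1 RPKM in F, 3.57, 2.27 and 2.56 after 2 days, 2.50, 4.99 and 2.43 after 5 days, and 21.6, 8.53 and 8.07 under compression. Replicate 4 of 2+3d-C was the highest of all 12, the other 2+3d-C libraries lay next to the lowest F library, and neither group overlapped the uncompressed cultures. Yap1 was 3.86-fold higher under compression than in 5d-U (1.95 ± 0.49, adjusted p = 0.011) and 4.55-fold higher than in 2d-U (2.18 ± 0.49, adjusted p = 0.0055). The first of these calls was lost without 5d-U replicate 6 (log2 1.76, adjusted p = 0.0523) and without 2+3d-C replicate 4 (log2 1.32, adjusted p = 0.0813), and also when 5d-U replicate 1 was left out together with F replicates 4 and 5 (log2 1.77, adjusted p = 0.0694). Relative to F, Yap1 was lower in 2d-U (-1.90 ± 0.49, adjusted p = 0.0097) and in 5d-U (-1.66 ± 0.48, adjusted p = 0.0241). The first of these was lost without 2d-U replicate 2 (adjusted p = 0.0515), and the second without 5d-U replicate 1 or 6 or F replicate 4 or 5 (adjusted p = 0.0964, 0.114, 0.053 and 0.0975). With 5d-U replicate 1 and F replicates 4 and 5 left out, which left 1 F library, the values were -1.58 and -1.18.

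Per unit of length, Wwtr1 was the more abundant of the co-activator genes in every library, at 3.40 to 13.1 times the RPKM of Yap1. The ratio averaged 9.12 ± 3.50 (SD, n = 3) in F, 6.59 ± 0.651 after 2 days, 7.43 ± 3.54 after 5 days and 7.39 ± 2.40 under compression. The 4 groups overlapped in this ratio. Over the 12 libraries, log2 CPM (reads scaled to the library size) of Yap1 and Wwtr1 had a Pearson r of 0.906, a description only, since both are read from the same libraries and scaling.

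The make-up of the TEAD family differed between the groups, with Tead2 most abundant in uncompressed culture and Tead1 under compression. Tead1 (ENSMUSG00000055320.17, chr7:112679318-112906807, plus strand) was at 2.68, 1.57 and 2.34 RPKM in F, at 0.896, 0.592 and 0.682 after 2 days, at 3.64, 1.53 and 0.912 after 5 days, and at 8.12, 11.1 and 8.62 under compression. All 3 compressed libraries were above the other 9. Tead1 was 4.58-fold higher under compression than in 5d-U (2.20 ± 0.51, adjusted p = 0.00705), 12.8-fold higher than in 2d-U (3.68 ± 0.54, adjusted p = 0.00029) and 4.23-fold higher than in F (2.08 ± 0.51, adjusted p = 0.0313). The call against F was lost without 2+3d-C replicate 5 (adjusted p = 0.0681), F replicate 4 (0.133) or F replicate 5 (0.0996). At day 2 Tead1 was lower than in F (-1.602 ± 0.502, adjusted p = 0.024), a call lost without any 1 of the 2d-U libraries or without F replicate 5 (adjusted p = 0.0554 to 0.0881).

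Tead2 (ENSMUSG00000030796.17, chr7:45215753-45233644, plus strand), a TEAD gene best known from early embryos, went the other way. It was at 0.773, 3.22 and 1.52 RPKM in F, at 14.4, 17.7 and 14.6 after 2 days, at 3.17, 15.3 and 8.45 after 5 days, and at 0.658, 0 and 0.0286 under compression, where these values stand for 168, 0 and 3 reads. The compressed libraries were below all others, and 5d-U replicate 1 lay within the F range, apart from the other uncompressed libraries. Under compression Tead2 was 35.6-fold lower than in 5d-U (-5.15 ± 1.15, adjusted p = 0.00542) and 61.8-fold lower than in 2d-U (-5.95 ± 1.19, adjusted p = 0.00257). Without 2+3d-C replicate 4, the library that holds nearly all of these reads, the differences were -8.81 and -9.60. Against F, the value of -2.87 ± 1.04 was not called (adjusted p = 0.0948), but it was without 2+3d-C replicate 4 (-6.51, adjusted p = 0.00362) or F replicate 1 (-3.31, adjusted p = 0.0409). Of 7 other settings of the fit, 3 called it. They were DESeq2 (-3.22, adjusted p = 0.0267), no filter on low counts (-2.77, adjusted p = 0.00204) and a block on the replicate numbers (-3.71, adjusted p = 0.0074). In 2d-U Tead2 was 8.47-fold higher than in F (3.08 ± 1.04, adjusted p = 0.0314), a call lost without 2d-U replicate 2, F replicate 1 or F replicate 5 (adjusted p = 0.055, 0.0691 and 0.0919).

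Tead3 and Tead4 were scarce and were called in no comparison by the edgeR fit described above, though other settings called some. Tead3 (ENSMUSG00000002249.21, chr17:28331671-28350817, minus strand) was at 0.651 to 1.32 RPKM in F, 1.17 to 1.62 after 2 days, 0.182 to 0.363 after 5 days and 0.468 to 1.98 under compression, so that the 5d-U libraries lay below all the others. Silent-gene density would account for 46.0% of its reads in 5d-U replicate 1, 17.2% in 5d-U replicate 6, 12.5% in F replicate 4 and 19.8% in F replicate 5. Its difference between 2+3d-C and 5d-U was 1.85 ± 0.77 (adjusted p = 0.0904), and it passed the threshold with DESeq2 (2.02, adjusted p = 0.0078) and after the background reads were subtracted (2.35, adjusted p = 0.038). For 5d-U against F the Tead3 value was -1.76 ± 0.77 (adjusted p = 0.131). DESeq2 called that one too (-2.17, adjusted p = 0.00374), as did edgeR after the subtraction (-2.24, adjusted p = 0.0443). Tead4 (ENSMUSG00000030353.15, chr6:128224288-128300823, minus strand), a partner of YAP in myoblast differentiation, was at 1.71 to 3.15 RPKM in F, 0.659 to 1.33 after 2 days and 1.402 to 3.59 after 5 days. In 2+3d-C it stood at 0.933, 0.101 and 0 RPKM (179, 3 and 0 reads). The difference from 5d-U was -2.93 ± 1.22 (adjusted p = 0.0895), and without 2+3d-C replicate 4 it was -6.07 (adjusted p = 0.00728). DESeq2 also called it (-2.75, adjusted p = 0.0376). Against F the 2+3d-C value of Tead4 was -2.76 ± 1.21 (adjusted p = 0.122). It was called with DESeq2 (-3.03, adjusted p = 0.0332) and without 2+3d-C replicate 4 (-5.88, adjusted p = 0.0199).

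**Figure D2:**
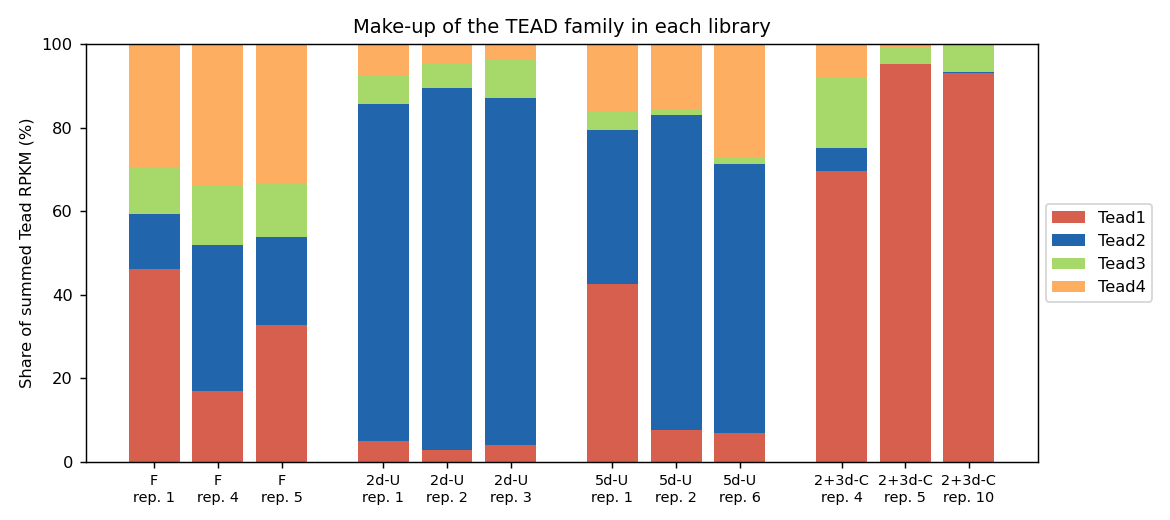
Share of each TEAD gene in the summed RPKM of Tead1 to Tead4 (%) in each of the 12 libraries, in blocks of 3 by group. Tead2 holds 80.7 to 86.7% of each 2d-U library, and Tead1 holds 69.5 to 95.1% of each 2+3d-C library.

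As a share of the summed RPKM of the 4 genes, Tead2 made up 83.5% ± 3.01 (SD, n = 3) after 2 days, 58.9% ± 19.8 after 5 days, 23.1% ± 10.9 in F and 1.98% ± 3.16 under compression. Tead1 made up 3.94% ± 1.07, 19.0% ± 20.3, 31.9% ± 14.6 and 85.9% ± 14.3 in the same groups. In F no gene dominated: Tead4 held 32.2% ± 2.45 and Tead3 12.8% ± 1.52. The summed level itself was 7.41 ± 1.74 RPKM in F, 18.6 ± 1.62 after 2 days, 14.0 ± 5.89 after 5 days and 10.9 ± 1.41 under compression. Replicate 1 of 5d-U, with 42.5% Tead1 and 37.0% Tead2, was apart from the other 5d-U libraries (6.94 and 7.55% Tead1), and it is one of the 3 libraries with many reads on silent genes. Subtracting those reads left its Tead1 share at 43.9%.

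Of the targets, Ccn2 (ENSMUSG00000019997.11, chr10:24595442-24598683, plus strand), which encodes the secreted matricellular protein CTGF, had the largest fold change between 2+3d-C and both uncompressed cultures. It was at 152, 474 and 823 RPKM in F, at 12.9, 9.87 and 8.70 after 2 days, at 52.2, 5.74 and 1.33 after 5 days, and at 1157, 939 and 1854 under compression. Neither F nor 2+3d-C overlapped any other group, while 5d-U spread on both sides of the narrow range of 2d-U. Ccn2 was 66.7-fold higher under compression than in 5d-U (6.06 ± 1.12, adjusted p = 0.00164), and the log2 difference was 8.52 without 5d-U replicate 1. Against 2d-U it was 125-fold higher (6.97 ± 1.16, adjusted p = 0.0007). Relative to F, Ccn2 was lower in 2d-U (-5.52 ± 1.09, adjusted p = 0.00213) and in 5d-U (-4.61 ± 1.04, adjusted p = 0.00558, and -7.07 without 5d-U replicate 1). The difference of 1.45 ± 0.91 between 2+3d-C and F was not called (adjusted p = 0.267). A stretch of 23.2% of its exon length is shared with Gm15270 on the other strand, and reads there cannot be assigned by strand; Gm15270 itself had 1 to 125 reads per library, against 78 to 176549 for Ccn2.

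Ccn1 (ENSMUSG00000028195.4, chr3:145646976-145649981, minus strand) encodes CYR61, a matricellular protein of the same family, and was, with Ccn2, at the top of the set in RPKM in F and 2+3d-C. Its levels were 993, 696 and 766 RPKM in F, 534, 408 and 407 after 2 days, 676, 204 and 214 after 5 days, and 2763, 5309 and 1618 under compression. All 3 compressed libraries exceeded the other 9. Ccn1 was 8.86-fold higher under compression than in 5d-U (3.15 ± 0.56, adjusted p = 0.00133), 7.18-fold higher than in 2d-U (2.84 ± 0.56, adjusted p = 0.00218) and 3.95-fold higher than in F (1.98 ± 0.54, adjusted p = 0.0436). The last call was lost without 2+3d-C replicate 5 (1.44, adjusted p = 0.136), F replicate 4 (1.88, 0.145) or F replicate 5 (1.93, 0.133). Uncompressed cultures were not called against F: the value was -0.86 ± 0.52 in 2d-U (adjusted p = 0.181) and -1.17 ± 0.53 in 5d-U (adjusted p = 0.144), and the latter was called without 5d-U replicate 1 (-1.95, adjusted p = 0.0113).

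Ankrd1 (ENSMUSG00000024803.9, chr19:36111961-36120099, minus strand), the gene of an ankyrin repeat protein of muscle nuclei and sarcomeres, ran against Ccn1 and Ccn2. It was at 66.7, 22.1 and 5.46 RPKM in F, at 687, 651 and 673 after 2 days, at 886, 854 and 831 after 5 days, and at 71.2, 171 and 27.5 under compression. The 6 uncompressed libraries held a narrow and high range, and the F and 2+3d-C libraries overlapped each other well below it. Under compression Ankrd1 was 9.52-fold lower than in 5d-U (-3.25 ± 0.77, adjusted p = 0.0078) and 7.45-fold lower than in 2d-U (-2.90 ± 0.76, adjusted p = 0.0129). Relative to F it was 21.3-fold higher in 2d-U (4.41 ± 0.81, adjusted p = 0.00139) and 27.3-fold higher in 5d-U (4.77 ± 0.83, adjusted p = 0.00108). The value for 2+3d-C against F, 1.52 ± 0.72, was not called (adjusted p = 0.14), but it was without F replicate 1 (2.54, adjusted p = 0.0408).

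Amotl2 (ENSMUSG00000032531.15, chr9:102716672-102733418, plus strand), a YAP target whose angiomotin-like product binds YAP in turn, was called in no comparison. Its levels were 16.5, 12.3 and 23.2 RPKM in F, 17.3, 13.6 and 10.8 after 2 days, 6.40, 19.9 and 3.83 after 5 days, and 19.5, 5.44 and 4.76 under compression. Every pair of groups overlapped. Between 2+3d-C and 5d-U the difference was -0.02 ± 0.63 (adjusted p = 0.984), and its sign depended on the library: it was -0.99 to 0.95 when 1 library of these groups was left out. In each of these groups 1 library stood above the rest, replicate 2 of 5d-U at 19.9 RPKM and replicate 4 of 2+3d-C at 19.5 RPKM.

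**Figure D3:**
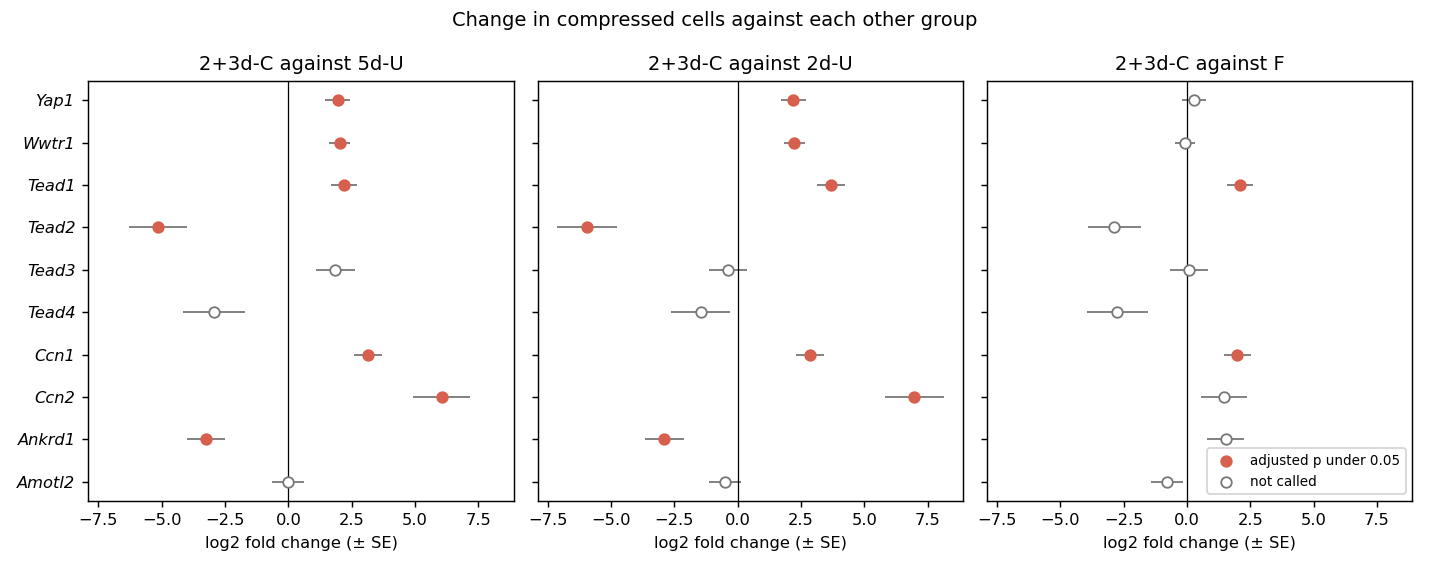
Log2 fold change (± SE) of each gene in 2+3d-C against 5d-U, 2d-U and F from the fit of all 12 libraries. Filled points passed an adjusted p of 0.05; 5 genes are on the right and 2 on the left of 0 among the filled points in the first and second panels, and Tead1 and Ccn1 alone are filled in the third.

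Counted over the set, 5 of 10 members were higher and 2 lower under compression than in 5d-U, where 9.14% of all tested genes were called higher and 13.4% lower. Against 2d-U the counts were also 5 and 2, beside 16% and 8.63% of all genes. The called genes were Yap1, Wwtr1, Tead1, Ccn1 and Ccn2 upward and Tead2 and Ankrd1 downward in both, and these comparisons share the 2+3d-C libraries. Against F, 2 were higher and 0 lower (1.94% and 4.47% of all genes), with 4 members at an unadjusted p under 0.05. The 2 calls against F, of Tead1 and Ccn1, were both lost without 2+3d-C replicate 5, F replicate 4 or F replicate 5, and when library sizes were not scaled by TMM. When 5d-U replicate 1 and F replicates 4 and 5 were left out together, a choice made after the data were seen, 4 members were higher and 2 lower against 5d-U, and 5 and 2 against 2d-U. This left 1 library in F, against which Tead1 was at 1.80 and Ccn1 at 1.71 on the log2 scale.

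For the uncompressed cultures, 2 members were higher (Tead2 and Ankrd1) and 4 lower (Yap1, Wwtr1, Tead1 and Ccn2) in 2d-U than in F, beside 10.6% and 33.3% of all genes; without 2d-U replicate 2 the total fell from 6 to 3. In 5d-U against F, 1 was higher (Ankrd1) and 3 lower (Yap1, Wwtr1 and Ccn2), beside 11.6% and 8.9%. Between 5d-U and 2d-U 0 members were called in either direction (1.87% of all genes were higher and 0.243% lower) by edgeR, with 2 at an unadjusted p under 0.05 and 1 called by DESeq2, Tead3 (-2.45, adjusted p = 0.00305). The members' median log2 difference was 1.90 for 2+3d-C against 5d-U, 0.90 against 2d-U and 0.19 against F, where the median of all tested genes was -1.05, 0 and -0.76. For 2d-U against F it was -1.08, for 5d-U against F -0.98, and between these cultures 0.22, beside -1.63, -0.41 and 1.13 for all genes. The medians of all genes, also used below, depended on the processing. After subtraction of silent-family reads they were -0.24 for 2+3d-C against 5d-U, 0.08 against 2d-U and -0.30 against F. With the 2 groups of each comparison fitted alone they were -0.21, 0.12 and -0.37.

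Other cell types and early-response genes moved with several of these members. The 8 immediate-early genes, which cells induce within minutes of a stimulus or of dissociation, summed to 12189 to 14898 CPM in F and 12759 to 23244 in 2+3d-C, against 649 to 822 in 2d-U and 693 to 892 in 5d-U. All 8 were higher under compression than in 5d-U and lower in both uncompressed cultures than in F, as were Wwtr1, Yap1 and Ccn2. Fos, for example, was at 446 to 740 RPKM in 2+3d-C and at 1.68 to 6.34 in 5d-U. Endothelial and smooth muscle cells are known to express Ccn1 and Ccn2, and the summed levels of their markers were far lower in both uncompressed cultures than in F and 2+3d-C. The 5 endothelial markers summed to 807 to 1264 CPM in F, 1.79 to 5.52 after 2 days, 1.54 to 25.5 after 5 days and 76.8 to 165 under compression, and 4 of 5 were higher under compression than in 5d-U. In each 2+3d-C library Ccn1 and Ccn2 were higher, and the endothelial sum lower, than in each F library. The part of endothelial cells in the levels of Ccn1 and Ccn2 was not tested. For 5 smooth muscle or pericyte markers the sums were 399 to 742, 4.17 to 4.59, 6.18 to 25.2 and 138 to 593 CPM in the same groups, 4 of 5 were higher under compression than in 5d-U, and Rgs5, Pdgfrb and Myh11 were at 0 in all 2d-U libraries. The smooth muscle sums of F and 2+3d-C overlapped. Of these 5 markers Notch3 had the highest RPKM in each 2+3d-C library, and Rgs5 in each F library. Notch3 was at 56.6, 9.66 and 46.4 RPKM under compression against 6.67, 2.85 and 7.75 in F (2.71 ± 0.78, adjusted p = 0.0528). The other markers of this list had lower values under compression than in F, with Rgs5 alone called (-2.76, adjusted p = 0.0303). Pdgfrb was at -2.81 (adjusted p = 0.0597), Myh11 at -1.71 (0.134) and Cspg4 at -1.75 (0.426). The paper also treats Notch3 as a gene of MuSCs that acts in their return to quiescence.

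Sums of the 5 fibroadipogenic markers were 2259 to 7893 CPM in F, 69.0 to 154 after 2 days, 74.8 to 108 after 5 days and 591 to 684 under compression, with 3 of 5 higher there than in 5d-U and Pdgfra and Lum at 0 in 2d-U. The 4 glial markers were at 185 to 257, 0 to 1.75, 0.523 to 7.92 and 71.8 to 133 CPM, with 2 of 4 higher under compression than in 5d-U and Sox10 and S100b at 0 in 2d-U. For 5 immune markers the sums were 120 to 237, 0.665 to 2.23, 1.19 to 22.01 and 1.46 to 13.9 CPM, with 0 higher and 1 lower, and Ptprc was at 0 in all 2+3d-C libraries. The 5 mature myofiber markers were at 24.1 to 2125, 45.9 to 78.7, 158 to 2534 and 54.0 to 156 CPM, with 2 of 5 lower under compression than in 5d-U. The 7 MuSC and myoblast markers summed to 2101 to 3863 CPM in F, where the fibroadipogenic sums reached higher. Their sums were 2450 to 2916 after 2 days, 2362 to 3701 after 5 days and 8714 to 13633 under compression. Of these 7 markers 4 were higher under compression than in 5d-U and 0 lower. The part of other cell types and of the early response in the members' differences was not tested.

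Around the pathway, 27 regulators of Hippo signaling were listed, of which 26 passed the filter on low counts. In 2+3d-C against 5d-U 5 were higher, 2 lower and 19 not called, beside 9.14% higher and 13.4% lower of all tested genes. The median was 0.64 on the log2 scale, where that of all tested genes was -1.05. With DESeq2 10 were higher and 3 lower, beside 3203 and 4479 of all 22583 genes tested. The core kinases and adaptors were mostly among those not called: Stk3 was at -0.31, Stk4 at -0.23, Sav1 at -0.03 and Lats2 at 0.52; these were named after their values were seen, and Stk4 and Sav1 changed sign with the library left out. Lats1, the kinase that phosphorylates YAP and TAZ, was higher (2.13 ± 0.53, adjusted p = 0.0104), at 15.9, 4.39 and 9.43 RPKM in 2+3d-C against 2.80, 1.73 and 2.27 in 5d-U, and its call was lost without 2+3d-C replicate 4 (adjusted p = 0.0614).

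Scaffold proteins that act on LATS moved in both directions. Limd1, of the Ajuba family of LIM proteins that bind and restrain LATS, was at 82.5, 17.0 and 97.0 RPKM in 2+3d-C and at 4.84, 6.81 and 3.15 in 5d-U (3.73 ± 0.60, adjusted p = 0.000628). Its relative Ajuba was lower (-3.95 ± 1.14, adjusted p = 0.0223), at 2.26, 0.398 and 0 RPKM in 2+3d-C against 13.7, 21.4 and 7.42 in 5d-U, a call lost without 2+3d-C replicate 5 (adjusted p = 0.0536) and without the 3 libraries rich in silent-gene reads (0.0631). The third of the family, Wtip, also called higher (1.80, adjusted p = 0.0393), was named after its values were seen, and its call was lost without any 1 of 8 libraries (adjusted p = 0.0508 to 0.119). Frmd6, a FERM-domain protein upstream of the kinases, was at 136, 21.3 and 83.5 RPKM in 2+3d-C against 6.09, 7.87 and 2.16 in 5d-U (3.90 ± 0.70, adjusted p = 0.00133). Wwc1, the gene of the upstream regulator KIBRA, was at 1.35, 4.05 and 2.71 RPKM in 5d-U and at 0.00378, 0 and 0 in 2+3d-C (adjusted p = 0.000105).

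Vgll2, a vestigial-like cofactor that binds TEAD proteins in muscle in place of YAP and TAZ, had the highest mean RPKM of the list. It was at 15.9, 12.8 and 9.69 RPKM in F, 77.1, 93.2 and 85.4 after 2 days, 11.9, 24.1 and 13.6 after 5 days, and 62.0, 107 and 75.7 under compression. It thus stood high after 2 days and under compression, and low in F and after 5 days, with no overlap between these pairs of groups. Vgll2 was higher under compression than in 5d-U (2.30 ± 0.42, adjusted p = 0.00142) and than in F (2.67 ± 0.42, adjusted p = 0.00397), and its difference from 2d-U was -0.06 ± 0.40. Against F, Vgll2 was the 1 regulator of 26 called higher and Wwc1 the 1 called lower, beside 1.94% and 4.47% of all tested genes. The median of the regulators was -0.06 beside -0.76 for all tested genes. Leaving out F replicate 1 gave 1 higher and 4 lower, beside 1185 and 8878 of all 27750 genes tested. Leaving out F replicates 4 and 5 with 5d-U replicate 1 left 1 F library, with Vgll2 at 2.37 and Wwc1 at -6.71 on the log2 scale.

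**Figure D4:**
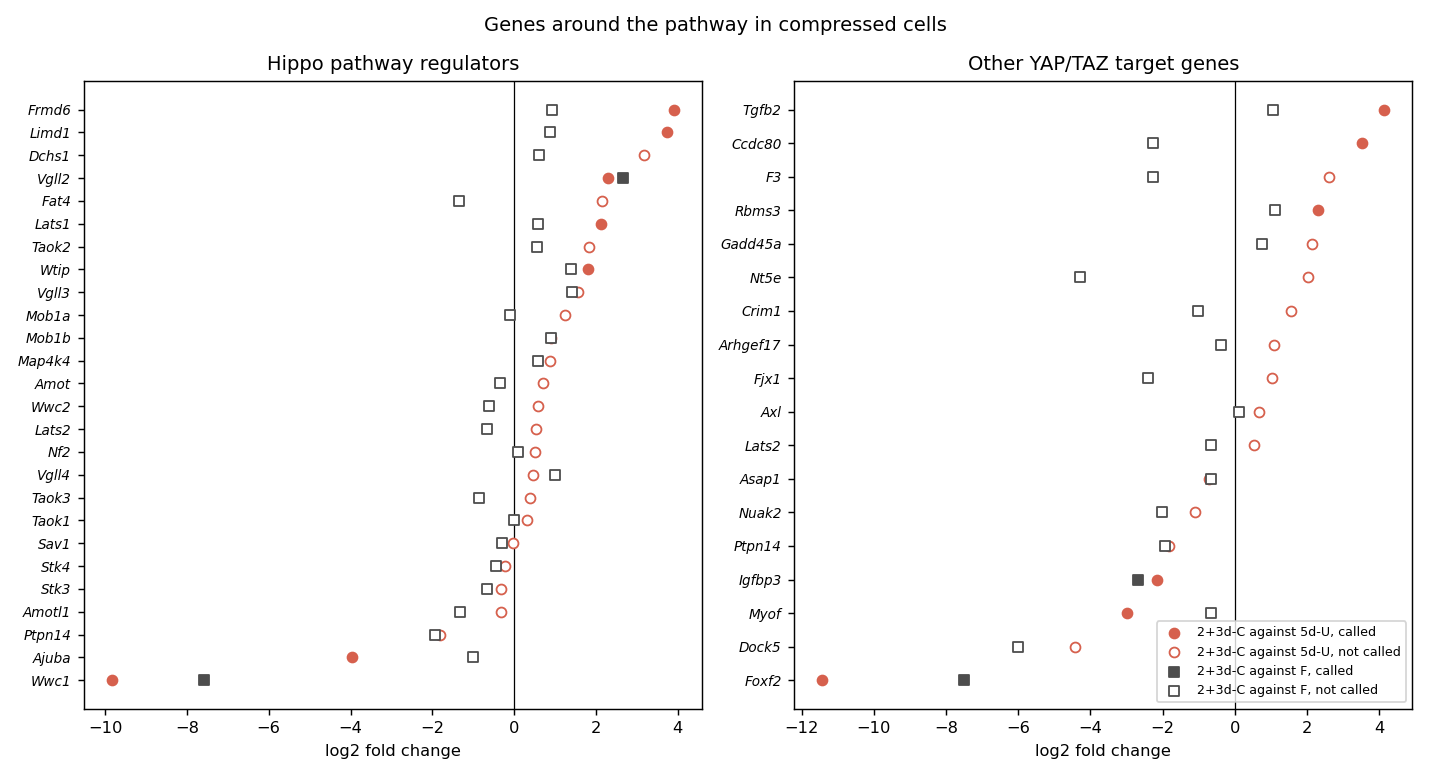
Log2 fold change of 26 Hippo regulators and 18 further YAP/TAZ targets in 2+3d-C against 5d-U (circles) and against F (squares); filled symbols passed an adjusted p of 0.05. Tgfb2, Frmd6 and Limd1 lie farthest to the right among the filled circles, and Wwc1 and Foxf2, with at most 1 read in any 2+3d-C library, lie far to the left at values that depend on how reads of 0 are treated.

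The 18 further targets came from a published signature of YAP/TAZ activity in tumours, without the 4 targets above. In 2+3d-C against 5d-U 3 were higher, 3 lower and 12 not called, beside 9.14% higher and 13.4% lower of all tested genes. Their median was 0.85, where that of all tested genes was -1.05. Of the 18, Lats2 and Ptpn14 are also on the list of regulators. With DESeq2 5 were higher and 5 lower, beside 3203 and 4479 of all 22583 genes tested. Tgfb2, the gene of a TGF-beta ligand, was at 43.0, 23.4 and 65.8 RPKM in 2+3d-C against 2.29, 0.964 and 4.22 in 5d-U (4.15 ± 0.69, adjusted p = 0.000855), and Rbms3 at 19.4, 14.0 and 16.8 against 3.79, 3.70 and 2.64 (2.31 ± 0.42, adjusted p = 0.00138). Ccdc80, a matrix protein gene, was higher too (3.53 ± 0.91, adjusted p = 0.0124, and 0.11 without the 3 libraries rich in silent-gene reads). Its level of 9.94 to 45.0 RPKM in F was near or above that of 2+3d-C, 2.22 to 10.5.

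Downward, Igfbp3, which encodes an IGF-binding protein, was at 8.79, 14.1 and 4.12 RPKM in 2+3d-C, below every library of the other groups. It was lower than in 5d-U (-2.17 ± 0.47, adjusted p = 0.0046) and than in F (-2.68 ± 0.48, adjusted p = 0.00819). Myof, a membrane fusion protein of myoblasts, was lower (-2.99 ± 0.78, adjusted p = 0.0138), and Foxf2 had 0 reads in the 3 compressed libraries against 2.45 to 7.74 RPKM in 5d-U, at least 59.4-fold lower against a floor of 3 reads in each library. Gadd45a and Axl, the targets with the highest mean RPKM, were not called against 5d-U (2.14 ± 0.79, adjusted p = 0.062, and 0.67 ± 0.50, adjusted p = 0.302). Gadd45a was called higher under 6 other settings of the fit, DESeq2 among them (2.12 to 6.03, adjusted p from 5.63e-05 to 0.0457), and without 5d-U replicate 6 (3.20, adjusted p = 0.0172) or F replicate 1 (2.51, adjusted p = 0.00867). It was not called without the 3 libraries rich in silent-gene reads (1.66, adjusted p = 0.0866). Against F 0 targets were higher and 2 lower, Igfbp3 and Foxf2, with a median of -1.47 beside -0.76 for all tested genes; the count was 1 without any 1 of the 2+3d-C libraries, F replicate 4, F replicate 5 or 5d-U replicate 6, 4 without 2d-U replicate 1, 7 without F replicate 1, and 6 with DESeq2.

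Across the 12 libraries, some members ran against each other and others did not. Tead1 and Tead2 had a Pearson r of -0.904 in log2 CPM, Ccn1 had 0.861 with Tead1 and -0.882 with Tead2, and Ccn2 had 0.842 with Yap1 and 0.852 with Wwtr1. Ankrd1 had -0.864 with Wwtr1 and -0.826 with Ccn2. Amotl2 had values between -0.24 and 0.57 with all others, and Tead3 between -0.33 and 0.57. These values rest on 4 groups that share libraries and scaling and are given as a description.

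Among 10349 named genes that averaged 5 CPM or more, the genes most like each member over the 12 libraries were, with Pearson's r in log2 CPM, as follows. Wwtr1 was most like Gna13 (0.985), Rel (0.981) and Aff4 (0.980), and Yap1 like Sesn2 (0.975), Fbxo30 (0.960) and Cables2 (0.960). Tead1 was most like Ccnt2 (0.976), Nipbl (0.947) and Slc7a1 (0.941), Tead2 like Chst2 (0.989), Dok1 (0.983) and Tysnd1 (0.981), Tead3 like Rab5b (0.924), Sec24c (0.922) and Wipf1 (0.895), and Tead4 like Armcx1 (0.980), Masp1 (0.974) and Dtna (0.971). Ccn1 was most like Myc (0.968), Ntn5 (0.967) and Clcf1 (0.961), Ccn2 like Nr1d1 (0.976), Irs2 (0.974) and Pim1 (0.961), Ankrd1 like Dusp12 (0.979), Orc6 (0.976) and Parp2 (0.971), and Amotl2 like Ptk2 (0.919), Gramd4 (0.893) and Dync1li2 (0.888). No member was among the nearest 3 of another. By rank correlation the nearest 3 were mostly different genes, with 0 of 3 shared for 7 members, 1 of 3 for Yap1 and Tead1, and 3 of 3 for Tead3.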

How the data were processed

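RNA from sorted or cultured MuSCs was amplified with SMART-Seq v4 and sequenced as single-end reads. Per the labels and methods, the authors aligned the reads to mm10 in an nf-core pipeline and counted them per gene on GENCODE annotation with featureCounts 1.6.4, without strand. The deposited values used here were raw counts for 55335 genes in each of 12 libraries with no normalization, beside the summed exon length of each gene.

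Counts were fitted with edgeR 4.0.16 (R 4.3.3; quasi-likelihood test, two-sided, TMM scaling, low counts filtered by group, 1 coefficient for each of the 4 groups), with Benjamini-Hochberg adjustment over the 22635 genes tested and calls at 0.05. Levels are RPKM from the exon length and the TMM-scaled library size, or log2 CPM computed with a prior count of 2. Silent-family density was the reads per kb of exon over 1853 autosomal receptor, defensin and keratin-associated genes. The fit was tested on simulated counts. Alternatives were DESeq2 1.42.0, no TMM, no filter, a replicate block, subtraction of silent-family reads, 2 groups alone and leaving out each library. Counting error is small beside the spread between libraries, except at a few reads.

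All 10 members were named, with for each the 3 genes most like it among genes of at least 5 mean CPM (predicted models left out). From each pathway list the 3 genes of highest mean RPKM were named, with up to 4 called genes of smallest p in each direction in 2+3d-C against F or 5d-U. The members and the lists were chosen with earlier results of these data known.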

Additional observations from a re-analysis of the deposited data

How the results depend on the processing

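In 2+3d-C against F, 2 members were called by the main fit, where 438 of all 22635 genes tested were higher and 1011 lower. The count was 4 with DESeq2 (824 and 4246 of 24507 genes) and 0 without TMM (142 and 1217 of 22635). With no filter on low counts it was 5 (554 and 2240 of 49901). After subtraction of silent-family reads it was 1 (364 and 786 of 18667), and with the 2 groups fitted alone 1 (125 and 1400 of 16696). Leaving out the 3 libraries with over 1 silent-family read per kb was an alternative chosen after seeing the data. Under it the log2 values against F were 1.80 for Tead1 and 1.71 for Ccn1 in 2+3d-C, and -1.18 for Yap1 and 3.68 for Ankrd1 in 5d-U. In 5d-U against 2d-U 1 member was called with DESeq2 (3028 and 389 of 22583 genes) and with the 2 groups alone (479 and 289 of 14548), in place of 0. Leaving out 1 library gave 6 to 7 called members in 2+3d-C against 5d-U, 7 to 8 against 2d-U, 0 to 4 against F, 3 to 6 in 2d-U against F, 3 to 5 in 5d-U against F and 0 in 5d-U against 2d-U. Leaving out the 3 libraries left 1 library in F, assumed to vary like the other groups. Of 83 differences of named genes it ended 14 calls, while DESeq2 ended 0 and added 8. Calls over all genes in 2+3d-C against F also shifted with the library left out. They were 1185 higher and 8878 lower of 27750 without F replicate 1, and 26 and 222 of 23830 without F replicate 4. The cause of these shifts was not tested.

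A replicate block on the numbers in the labels gave 2 calls in 2+3d-C against 5d-U, 2 against 2d-U, 4 against F, 2 in 2d-U against F and 1 in 5d-U against F. Those called were Tead2 and Ccn1 against 5d-U, Tead1 and Tead2 against 2d-U, Tead1, Tead2, Ccn1 and Ankrd1 against F, Tead2 and Ankrd1 in 2d-U against F, and Ankrd1 in 5d-U against F. Under it Ankrd1 was at -0.41 (adjusted p = 0.86) in place of -3.25 against 5d-U, and its value of -2.90 against 2d-U came to -0.0308 (adjusted p = 1.0). Ccn2 was at 2.82 (adjusted p = 0.0572) in place of 6.06 against 5d-U, and at 3.44 (adjusted p = 0.064) in place of 6.97 against 2d-U. No 2+3d-C library shares its number with a 5d-U or 2d-U library, so under the block these comparisons run through F. F replicate 1 shares its number with libraries of both uncompressed groups, and F replicates 4 and 5 with 2+3d-C libraries. Ankrd1 was at 66.7, 22.1 and 5.46 RPKM in F replicates 1, 4 and 5. The block therefore cannot decide whether these differences hold within a sort. The paper states that each sorted batch was split at random among conditions, but not whether these numbers mark a batch. Over 6 same-numbered pairs the correlation of deviations from the group means was -0.42 to 0.03. With 3 libraries per group this cannot decide whether same-numbered libraries share a sort. For 5d-U replicate 1, rich in silent-gene reads, it was -0.42 with F replicate 1 and 0.48 with F replicate 5, also rich in them.

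Signs changed only for differences that were not called. For Amotl2 in 2+3d-C against 5d-U the log2 value was 0.18 with DESeq2, 0.14 with no filter, 0.076 with the block, 0.13 after subtraction, 0.0386 with 2 groups alone and -0.99 to 0.95 without 1 library. Against F, Yap1 was at -0.18 without TMM and -0.32 to 0.55 without 1 library, Wwtr1 at 0.0302 with the block and -0.43 to 0.19, and Tead3 at -0.16 with DESeq2, -0.38 without TMM, -0.18 with the block, -0.18 with 2 groups alone and -0.83 to 0.44. In 5d-U against F, Tead1 was at 0.29 with the block and -0.83 to 0.25 without 1 library, and Tead4 at -0.28 with DESeq2, -0.26 without TMM, -0.12 after subtraction and -0.50 to 0.50. In 5d-U against 2d-U, Yap1 was at -0.15 without TMM, -0.0782 with 2 groups alone and -0.18 to 0.45, Wwtr1 at -0.0087 with DESeq2, -0.24 without TMM, -0.0893 with no filter, -0.13 with 2 groups alone and -0.13 to 0.38, Ccn2 at -1.57 with the 3 libraries left out and -1.56 to 1.46, and Ankrd1 at -0.0585 without TMM. Among pathway genes in 2+3d-C against 5d-U, Axl was at -0.90, Stk3 at 0.39, Stk4 at 0.32 and Lats2 at -0.645 with the block, Stk4 at 0.00109 with no filter and -0.46 to 0.0788 without 1 library, and Sav1 at 0.16 with DESeq2, 0.19 with no filter, 0.11 after subtraction, 0.0213 with 2 groups alone and -0.145 to 0.27.

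Without TMM the median log2 difference of all tested genes moved from -0.76 to -1.24 in 2+3d-C against F, and genes called in 2+3d-C against 2d-U went from 3619 higher and 1954 lower to 2537 higher and 3139 lower. Tead2 and Tead4 rest on 0 to 179 reads in the 2+3d-C libraries.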

Other observations

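In 2+3d-C, replicate 4 was the deepest library (62424851 reads on genes) and held 168 of the 171 Tead2 reads and 179 of the 182 Tead4 reads of its group, as well as the highest Yap1, Tead3 and Amotl2 levels of the group. At its silent-family density 0.901 of these Tead2 reads and 0.677 of these Tead4 reads would be background. In 5d-U, replicate 1 had Ccn2 at 52.2 RPKM and Ccn1 at 676 RPKM, against 1.33 to 5.74 and 204 to 214 RPKM in the other 5d-U libraries, and Tead1 at 3.64 RPKM against 0.912 to 1.53.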
